A study of Caenorhabditis elegans with 6 samples.

Results

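The C-type lectin genes of Caenorhabditis elegans were taken as every gene whose name is clec followed by a number, 240 genes among the 45132 listed in each library. All 240 had an entry in the RefSeq annotation of build WBcel235, 239 as protein-coding genes and 1 as a pseudogene. Of these, 91 reached 1 FPKM (fragments per gene, scaled by transcript length and by library size) in 3 or more of the 6 libraries, and the description below is about those 91 unless it says otherwise. RNA came from whole worms of strain N2, which is wild type, collected as 5-day-old adults. The treated worms received RNA interference (RNAi) against vit-5, a yolk protein gene, by feeding as larvae, and the control worms received the L4440 control RNAi at the same stage. Both groups were moved as young adults to plates with E. coli OP50 at 20 °C. There were 3 vit-5 RNAi and 3 control RNAi libraries, and nothing in the labels says that these were independent cultures. The p-values therefore rest on the spread among 6 libraries, which may be technical in part or whole.

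C-type lectins carry a domain that in many of them binds sugars with the help of calcium, and the family is much expanded in nematodes. Many worm members are predicted to be secreted, several are made by the intestine, and bacterial infection changes the level of a good part of the family. Others act outside immunity: clec-38 is known for a role in axon outgrowth and presynaptic development. Whether vit-5 RNAi altered this family in adult worms is the comparison that the design allows.

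The deposited values hold no read counts. The spacing of the lowest FPKM values gave rough depths of 16700000 to 20900000 fragments per library, but counts were not recovered, since 35.8% to 38.6% of the values nearest 0 came within 0.1 of a whole fragment. The target vit-5 had 116, 51.6 and 22.8 FPKM in the vit-5 RNAi libraries, against 2335, 1396 and 1573 FPKM in the control libraries, groups far apart and in the direction of the labels. Its log2 fold change was -5.03 (SE 0.50, limma adjusted p 0.0552 over all 12908 genes tested). It passed when vit-5 RNAi replicate 1 or replicate 3 was left out (adjusted p 0.000558 and 0.00721). FPKM of most genes was higher in vit-5 RNAi libraries: the median log2 fold change (vit-5 RNAi minus control, on log2(FPKM + 1)) was 0.34, and 0 genes passed an adjusted p of 0.05 in limma, a share of 0%, while 3378 were higher and 117 lower at an unadjusted p under 0.05. Of the marker lists fixed for this report, intestine (6 of 6 tested) and germline (5 of 5) genes were all measured, and none of the 5 sperm genes reached the level for testing.

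Most of the family was at or near 0 in these adults. Among the 149 members that were not tested, 44 were listed at 0 in all 6 libraries, 92 had some signal but never reached 1 FPKM, and 13 reached 1 FPKM in 1 or 2 libraries. The pseudogene was among the 149. Expressed members made up 37.9% of the family, whereas 63% of the 19846 protein-coding genes in the files reached the same level. At the edge of this threshold, clec-118 was kept with 0.34, 1.20 and 1.01 FPKM in vit-5 RNAi worms and 0.97 and 1.28 FPKM in control replicates 1 and 3, with control replicate 2 listed at 0. Just outside it, clec-104 had 0.89, 1.01 and 0.73 FPKM in vit-5 RNAi worms and 0.91, 0.57 and 1.06 FPKM in control worms. Of the 91 members kept, 67 were at or above 1 FPKM in all 6 libraries.

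The share of members expressed differed between chromosomes. This was not tested, and no shares of all genes per chromosome are given. Chromosome IV had 29 of its 53 members expressed (54.7%) and chromosome V 28 of 85 (32.9%). On chromosome II 17 of 49 were expressed (34.7%), on chromosome I 10 of 36 (27.8%) and on chromosome III 4 of 14 (28.6%), while all 3 members on chromosome X were expressed. The summed level followed another order: chromosome I held 30.2% of the family's FPKM and chromosome IV 10.8%. Most of the part on chromosome I came from clec-87, which held 24.6% of the family's FPKM and lies within the span of iars-2. Expressed members had a median coding length of 1086 bases and the others a median of 879 bases (146 of the 149 had a coding length in the Ensembl annotation).

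A few genes supplied most of the family's signal. Averaged over the 6 libraries, 3 members stood above 1000 FPKM, 13 between 100 and 1000, 24 between 10 and 100, 49 between 1 and 10, and 2 below 1. The first alone held 24.6% of the summed FPKM, the first 4 held 59.7% and the first 10 held 80.6%. The median over expressed members was 8.48 FPKM, below the 13.6 FPKM of all tested genes.

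**Figure D1:**
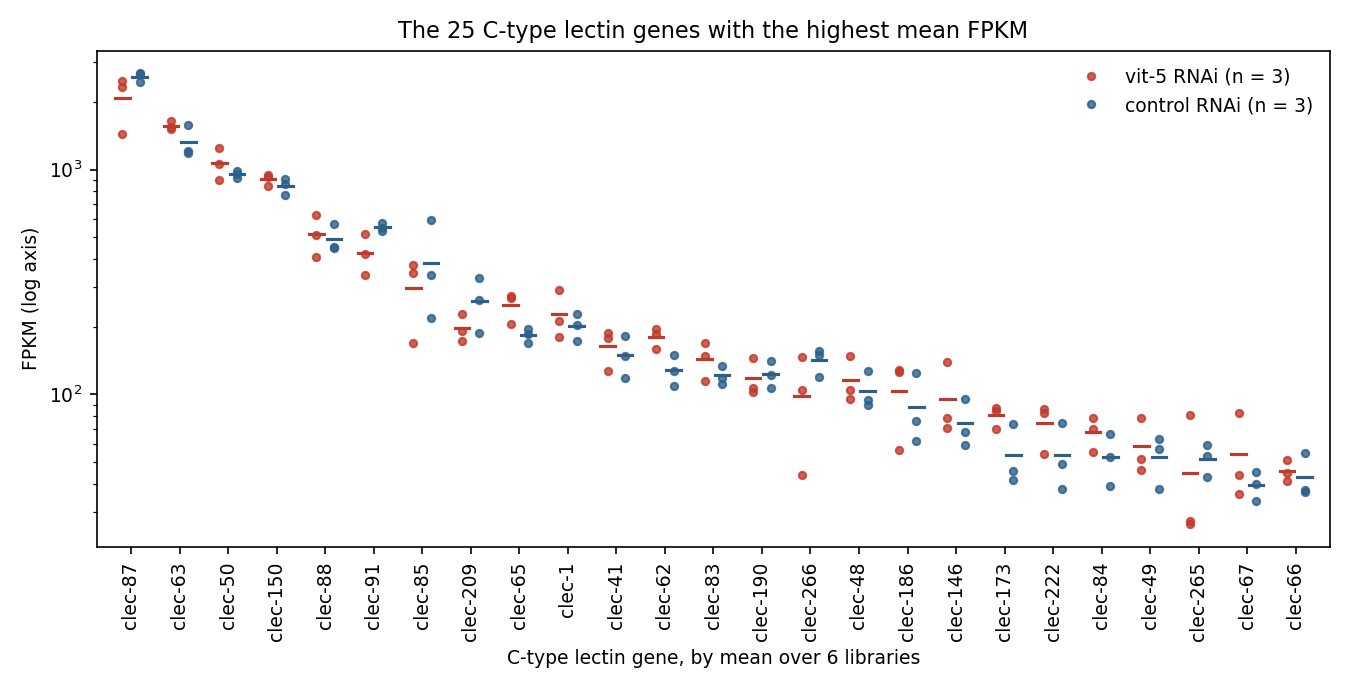
FPKM on a log axis of the 25 C-type lectin genes with the highest mean over 6 libraries, in falling order of that mean. Points are single libraries and bars are group means, with vit-5 RNAi left of control RNAi (3 libraries each); levels run from 2339 FPKM for clec-87 downwards, and for most of these genes the groups share a range.

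The most abundant member, clec-87 (gene ID 172885; chromosome I, 10184462 to 10185520), had 2477, 2338 and 1443 FPKM in vit-5 RNAi worms, against 2681, 2657 and 2440 FPKM in control worms. One vit-5 RNAi library was well below the other 5, and the groups overlapped. Its log2 fold change was -0.35 (SE 0.21, limma adjusted p 0.297). In that same library, vit-5 RNAi replicate 3, the 5 germline markers summed to 819 FPKM, against 1201 to 1644 FPKM in the other 5 libraries, and their part in the value of clec-87 was not tested. The gene lies within the span of iars-2, and reads of overlapping genes cannot be told apart with certainty because the sources used here do not give strandedness.

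Next in level was clec-63 (chromosome II, 12895638 to 12897446), with 1514, 1545 and 1642 FPKM in vit-5 RNAi worms, against 1584, 1208 and 1185 FPKM in control worms. The groups overlapped through control replicate 1. For clec-50 (chromosome V, 19752399 to 19755368) the means were 1069 ± 178 FPKM in vit-5 RNAi and 953 ± 31.4 FPKM in control worms (SD, n = 3 each). The fourth, clec-150 (chromosome III, 1002707 to 1006298), was the steadiest of the abundant members, at 906 ± 55.1 FPKM in vit-5 RNAi and 846 ± 68.2 FPKM in control worms (SD, n = 3 each). Differences of these 3 genes were within the spread between libraries, with log2 fold changes of 0.10 to 0.25 and limma adjusted p-values of 0.297 to 0.637, and their signs turned negative after median-of-ratios or upper-quartile scaling.

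Among the other members of the first 10, clec-91 (chromosome I, 9126140 to 9127101) was the one whose vit-5 RNAi values, 517, 422 and 338 FPKM, all lay below its control values of 577, 551 and 533 FPKM. Its log2 fold change was -0.40 (SE 0.17, unadjusted p 0.0479, limma adjusted p 0.182), and it overlaps ZK858.8. Its lowest value of all was in vit-5 RNAi replicate 3, as it was for clec-87, clec-50, clec-88, clec-85 and clec-209. This did not hold for clec-63, clec-150, clec-65 and clec-1. The neighbouring level was held by clec-88 (chromosome II, 6365722 to 6367002), with 514 ± 108 FPKM in vit-5 RNAi and 489 ± 69.7 FPKM in control worms (SD, n = 3 each). For clec-209 (chromosome V, 2351676 to 2352932) the means were 197 ± 27.3 FPKM in vit-5 RNAi and 259 ± 70.8 FPKM in control worms, and for clec-1 (chromosome V, 5700154 to 5701080) they were 228 ± 57.6 FPKM in vit-5 RNAi and 201 ± 28.1 FPKM in control worms (SD, n = 3 each). Neither pair of groups separated. Levels of clec-88 and clec-91, and those of clec-209, clec-65 and clec-1, fell within each other's spread, so their order within the family is not fixed by these libraries.

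Added over all 240 members, the family stood at 10121, 10049 and 8513 FPKM in vit-5 RNAi worms, against 10403, 9019 and 8933 FPKM in control worms. The groups overlapped, and the means of 9561 ± 909 and 9451 ± 825 FPKM (vit-5 RNAi and control, SD, n = 3 each) gave an exact 2-sided permutation p of 1. As a share of all FPKM the family took 0.813% ± 0.082 in vit-5 RNAi and 0.776% ± 0.103 in control worms (SD, n = 3 each). The sign of the difference in the sum, 109.6 FPKM, was not stable: it was -2285 FPKM after median-of-ratios scaling and -1753 FPKM after upper-quartile scaling, and it turned negative without vit-5 RNAi replicate 1 or 2 (-170.4 and -134.5 FPKM) or control replicate 2 or 3 (-106.5 and -149.8 FPKM). It was larger without vit-5 RNAi replicate 3 (633.8 FPKM) or control replicate 1 (585.2 FPKM), and without the most abundant member, clec-87 (616 FPKM, exact 2-sided permutation p 0.4). More members reached 1 FPKM in vit-5 RNAi worms, 84, 92 and 100, than in control worms, 76, 78 and 84, with both groups holding a library at 84 (exact 2-sided permutation p 0.2, where the smallest possible with 3 against 3 is 0.1). All genes together went the same way, with 13136 ± 319 genes at 1 FPKM or more in vit-5 RNAi and 12250 ± 199 in control worms (SD, n = 3 each).

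In the gene-by-gene comparison, with the group as the only term, 0 of the 91 members passed an adjusted p of 0.05 in limma, the smallest adjusted p being 0.122. This outcome depends on the model: with a replicate block many genes passed, members among them, as given in the closing section. At an unadjusted p under 0.05, 19 members were higher after vit-5 RNAi, 20.9% of those tested, where the share over all tested genes was 26.2%. On the lower side 1 member, clec-91, had such a p, where the share over all genes was 0.906%. The family's 74 positive log2 fold changes (81.3%) stood beside 79.5% of all genes. Its median log2 fold change was 0.26, or -0.08 relative to the median of all tested genes, 0.34. The family's differences thus lay on the same side as those of most genes.

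These counts differed with the scaling. After median-of-ratios scaling 8 members were higher and 6 lower at an unadjusted p under 0.05, with 9.23% and 12.1% of all genes in those classes, and the median of all genes was 0.03. Upper-quartile scaling gave 10 higher and 5 lower, with 12.7% and 8.67% of all genes, and quantile scaling gave 6 and 3, with 5.77% and 5.75%. All 8 members called higher after median-of-ratios scaling were among the 19. The 6 called lower included the abundant clec-91, clec-209 and clec-87, with log2 fold changes of -0.76, -0.73 and -0.72 on that scale. Without control replicate 2 there were 11 members higher (12.1%, beside 11.2% of all genes), and without vit-5 RNAi replicate 2 there were 12 (13.2%, beside 19.9%). Of members lower there were 2 when vit-5 RNAi replicate 1 or 3 was left out, and 0 when vit-5 RNAi replicate 2, control replicate 1 or control replicate 2 was. For these lower counts no shares of all genes are given, so they are not read as a result about the family.

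**Figure D2:**
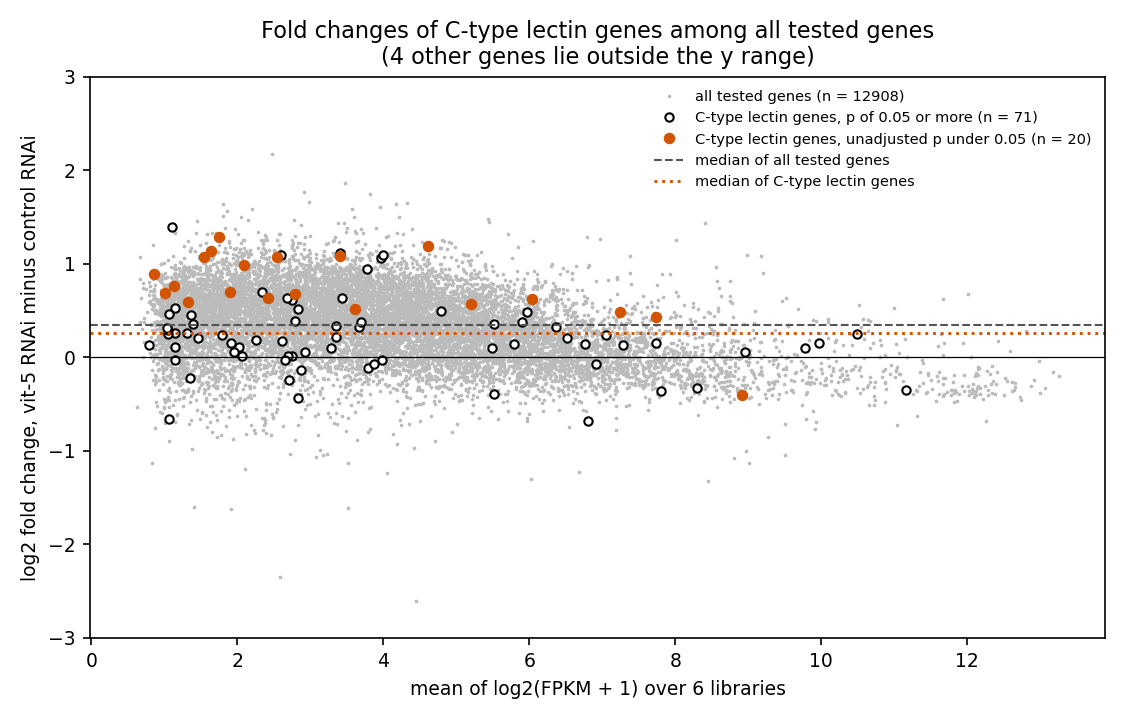
Log2 fold change (vit-5 RNAi minus control RNAi) of log2(FPKM + 1) against the mean log2(FPKM + 1) over 6 libraries, for all 12908 tested genes (grey) and the 91 C-type lectin genes (open circles, or filled where the unadjusted p was under 0.05; 20 genes). The dashed line is the median of all genes, 0.34, and the dotted line that of the C-type lectin genes, 0.26; the C-type lectin genes lie within the cloud of all genes.

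The fold changes differed with level. The 16 members with a mean of 100 FPKM or more had a median log2 fold change of 0.12, beside -0.06 for the 1534 genes of any kind at that level. Between 10 and 100 FPKM the 24 members had a median of 0.43, beside 0.32 for 5822 genes, and below 10 FPKM the 51 members had a median of 0.29, beside 0.45 for 5552 genes. Of the 19 members that were higher at an unadjusted p under 0.05, 12 had a mean below 10 FPKM, 23.5% of the members at that level, beside 31.7% of all genes there.

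Smallest of all was the p of clec-218 (gene ID 189114; chromosome V, 8307942 to 8310766), which had 28.0, 32.0 and 51.5 FPKM in vit-5 RNAi worms, against 17.6, 11.96 and 16.5 FPKM in control worms. The groups did not overlap, and the ratio of means was 2.42. Its log2 fold change was 1.19 (SE 0.27, limma adjusted p 0.122), or 0.85 after median-of-ratios scaling. A similar separation was seen for clec-160 (gene ID 176167; chromosome III, 8272956 to 8275971), with 17.3, 12.1 and 14.4 FPKM in vit-5 RNAi worms, against 8.35, 5.27 and 5.62 FPKM in control worms. The log2 fold change was 1.08 (SE 0.25, limma adjusted p 0.122), or 0.76 after median-of-ratios scaling. Both genes overlap no other protein-coding gene.

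The remaining 8 of the 10 smallest p-values belonged to genes at lower levels, with the exception of clec-62, described with its neighbours. In clec-54 (chromosome V, 14476903 to 14479003) the values were 10.02, 6.05 and 6.75 FPKM after vit-5 RNAi, against 4.61, 2.01 and 2.79 FPKM in controls. In clec-221 (chromosome V, 10953453 to 10954434), which overlaps F17C11.4, they were 5.18, 3.71 and 2.38 FPKM after vit-5 RNAi, against 0.75, 0.89 and 1.82 FPKM in controls. For clec-168 (chromosome IV, 1256969 to 1259344) they were 4.37, 3.505 and 2.10 FPKM after vit-5 RNAi, against 0.51, 0.88 and 1.82 FPKM in controls. In each of these 3 genes the lowest vit-5 RNAi library lay above the highest control library, by little in the last 2. The gene clec-172 (chromosome IV, 1515453 to 1516627), which overlaps txt-4, stood at 3.79 ± 0.51 FPKM in vit-5 RNAi and 1.94 ± 0.27 FPKM in control worms (SD, n = 3 each).

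Another 3 of the 10, clec-165, clec-25 and clec-75, were below 1 FPKM in every control library and above it in every vit-5 RNAi library, so they entered the test only through the group in which they were higher, and had to differ. Their means were 1.86, 1.55 and 1.48 FPKM in vit-5 RNAi and 0.69, 0.58 and 0.36 FPKM in control worms. Along with clec-170, 4 members entered in that way, and 0 entered through control libraries alone. With a filter on the mean over all 6 libraries in place of the level in 3 libraries, 92 members were tested and 19 were again higher, 18 of them among the first 19, where the share over all 12887 genes tested in that way was 25.7%. Across all genes, 30.8% had their 3 vit-5 RNAi values above their 3 control values, and 20 of the 91 members did. Below them 1 member did, beside 3.15% of all genes. Among the 67 members that overlap no other protein-coding gene, 11 were higher at an unadjusted p under 0.05 and 0 lower. Over all tested genes, overlapping or not, 26.2% were higher and 0.906% lower.

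Many members lie next to each other. Joining members whose starts are at most 20 kb apart gave 48 runs that held 162 of the 240 members and 59 of the 91 expressed ones, and 22 of the runs held no expressed member. Sequence likeness within runs was not analysed here, so whether near-identical neighbours shared reads was not tested. The longest, with 13 members on chromosome V (16839121 to 16869840), had 3 expressed members. The run with the most expressed members, 7 of 12, spanned 3922165 to 4014235 on chromosome IV. Its levels differed widely from neighbour to neighbour. The first gene, clec-67 (3922165 to 3924515), had 36.05, 43.7 and 82.2 FPKM in vit-5 RNAi worms and 33.5, 45.3 and 39.9 FPKM in control worms, while clec-79 was listed at 0 in all 6 libraries. In between, clec-72 had 9.57, 16.1 and 62.5 FPKM after vit-5 RNAi and 5.27, 10.999 and 15.8 FPKM in controls, and clec-174 averaged 6.03 FPKM after vit-5 RNAi and 6.02 FPKM in controls. The run as a whole summed to 103 ± 59.7 FPKM in vit-5 RNAi and 69.2 ± 22.5 FPKM in control worms (SD, n = 3 each; exact 2-sided permutation p 0.5).

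Other runs were chosen for description after their values were seen. On chromosome II (12893062 to 12906644) clec-62, clec-63, clec-65 and clec-66 were all expressed, and clec-64 in their midst was not, with 0.53, 0.72 and 4.40 FPKM after vit-5 RNAi and 0.65, 1.87 and 0.79 FPKM in controls. In clec-62 (12893062 to 12895128) the values were 185, 195 and 159 FPKM after vit-5 RNAi, against 149, 126 and 109 FPKM in controls. In clec-65 (12901325 to 12903336) they were 267, 274 and 206 FPKM after vit-5 RNAi, against 196, 168 and 186 FPKM in controls. In both genes the lowest vit-5 RNAi library exceeded the highest control library, with log2 fold changes of 0.49 (SE 0.17, limma adjusted p 0.136) and 0.43 (SE 0.16, limma adjusted p 0.148), which shrank to 0.13 and 0.07 after median-of-ratios scaling. The run summed to 2017, 2056 and 2056 FPKM in vit-5 RNAi worms, against 1967, 1542 and 1536 FPKM in control worms, values that did not overlap by a small margin (exact 2-sided permutation p 0.1, the smallest possible).

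On chromosome V (14469191 to 14482317) 5 neighbours, clec-57, clec-227, clec-56, clec-54 and clec-55, were all expressed, and in each of them except clec-227 the vit-5 RNAi values lay above every control value, as in 30.8% of all genes. Their highest member, clec-56 (14474399 to 14476794), had 50.6, 46.1 and 36.4 FPKM in vit-5 RNAi worms, against 35.5, 26.2 and 27.0 FPKM in control worms. The run summed to 66.7 ± 11.4 FPKM in vit-5 RNAi and 41.1 ± 9.07 FPKM in control worms (SD, n = 3 each, exact 2-sided permutation p 0.1). Both this run and the one on chromosome II were picked with their values known, so their permutation p-values cannot count as tests of them. In another run of 5 expressed genes on chromosome IV (2823746 to 2855456), clec-85 supplied most of the sum, and the groups overlapped in it and in the run. That run summed to 547 ± 141 FPKM in vit-5 RNAi and 582 ± 206 FPKM in control worms (SD, n = 3 each, exact 2-sided permutation p 0.9).

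**Figure D3:**
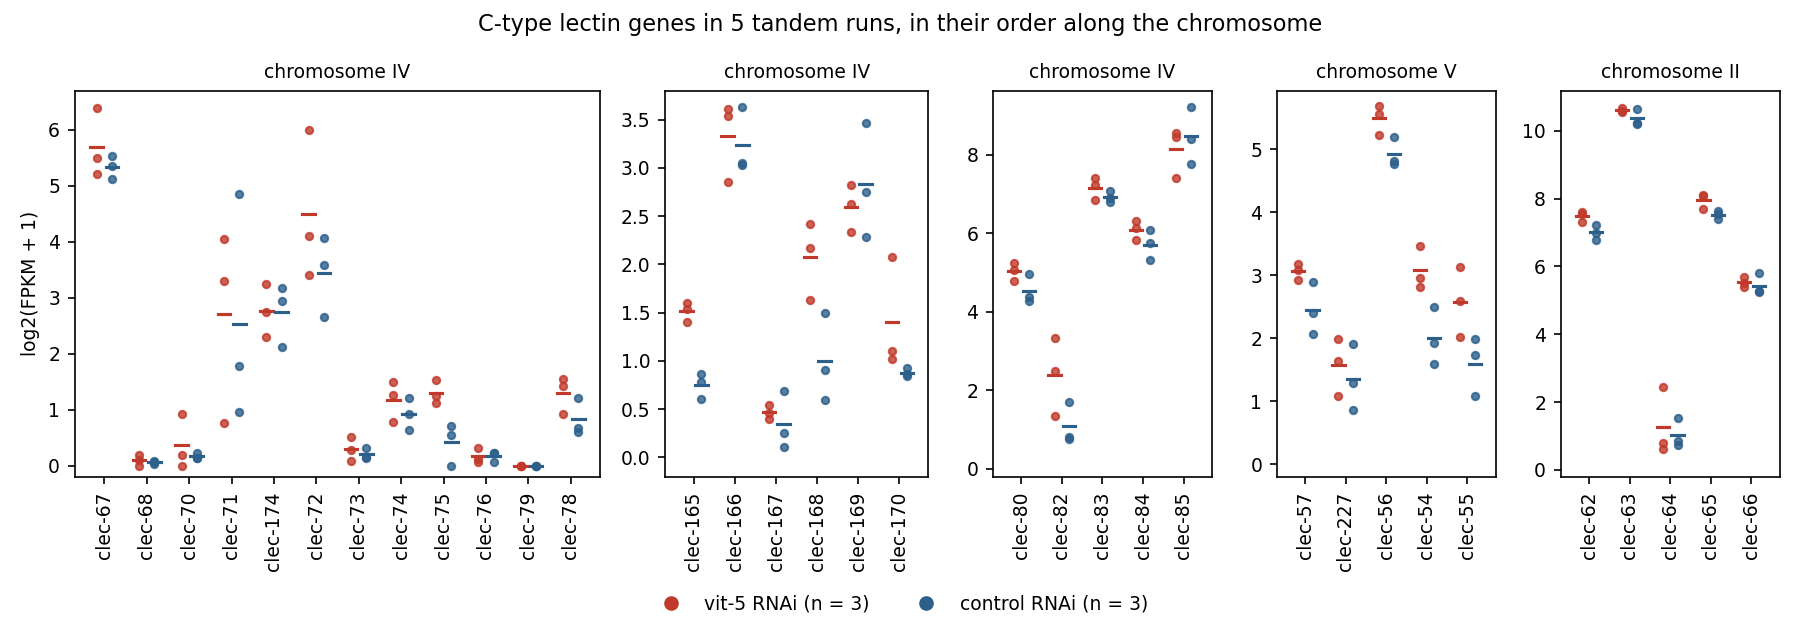
Levels as log2(FPKM + 1) of the members of 5 runs of neighbouring C-type lectin genes, each in its order along the chromosome. Points are libraries and bars are group means, with vit-5 RNAi left of control RNAi (3 libraries each); neighbours within a run differ far more in level than the groups do.

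Some members varied far more within groups than between them. The within-group SD of log2(FPKM + 1) had a median of 0.33 over the 91 members and 0.29 over all tested genes, and it was above 1 in 8 members (8.79%) and in 286 of all tested genes (2.22%). The gene clec-60 (chromosome II, 10480043 to 10481874), which is induced by Staphylococcus aureus, had 2.76, 5.14 and 29.4 FPKM in vit-5 RNAi worms and 0.43, 2.39 and 13.8 FPKM in control worms. Its neighbour clec-61 (10488730 to 10490537) had 0.72, 1.39 and 17.2 FPKM in vit-5 RNAi worms and 0.23, 1.88 and 15.7 FPKM in control worms. Both were high in replicate 3 of each group and low in the other 4 libraries, so the groups overlapped throughout.

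In clec-71 (chromosome IV, 3937458 to 3939979) the values were 8.77, 0.70 and 15.6 FPKM after vit-5 RNAi and 0.95, 2.44 and 27.7 FPKM in controls. The gene clec-230 (chromosome V, 15347847 to 15349144) stood out in 1 library, with 5.59, 5.00 and 7.53 FPKM in vit-5 RNAi worms and 2.86, 3.22 and 26.7 FPKM in control worms. In clec-15 (chromosome I, 12631185 to 12632555) vit-5 RNAi libraries held 3.73 and 7.94 FPKM with replicate 1 listed at 0, and control replicate 3 held 1.31 FPKM with the other two listed at 0. For these 5 genes the log2 fold changes ran from -0.14 to 1.397 with SEs of 0.68 to 1.10, and the limma adjusted p-values were 0.25 to 0.956.

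The libraries also differed in transcripts of larval cuticle and molting. The 12 genes of that list summed to 161, 204 and 779 FPKM in vit-5 RNAi worms and 122, 441 and 505 FPKM in control worms, and the collagen rol-6 to 3.15, 27.8 and 202 FPKM in vit-5 RNAi and 3.41, 107 and 117 FPKM in control worms. Replicate 3 of each group, where clec-60, clec-61 and clec-71 were highest, was also highest within its group in that sum and in rol-6, though not in every gene of the list. Over the family, 24 of the 91 members (26.4%) were highest in replicate 3 of both groups, beside 24.6% of all genes, and 16 (17.6%) were lowest there, beside 10.8%. The part of the molting genes in the levels of the C-type lectin genes was not tested. Control replicate 2 was high in rol-6 and low in clec-60 and clec-61. Whether fewer cells of a type or less RNA per cell underlies a level cannot be told apart in whole-worm RNA.

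**Figure D4:**
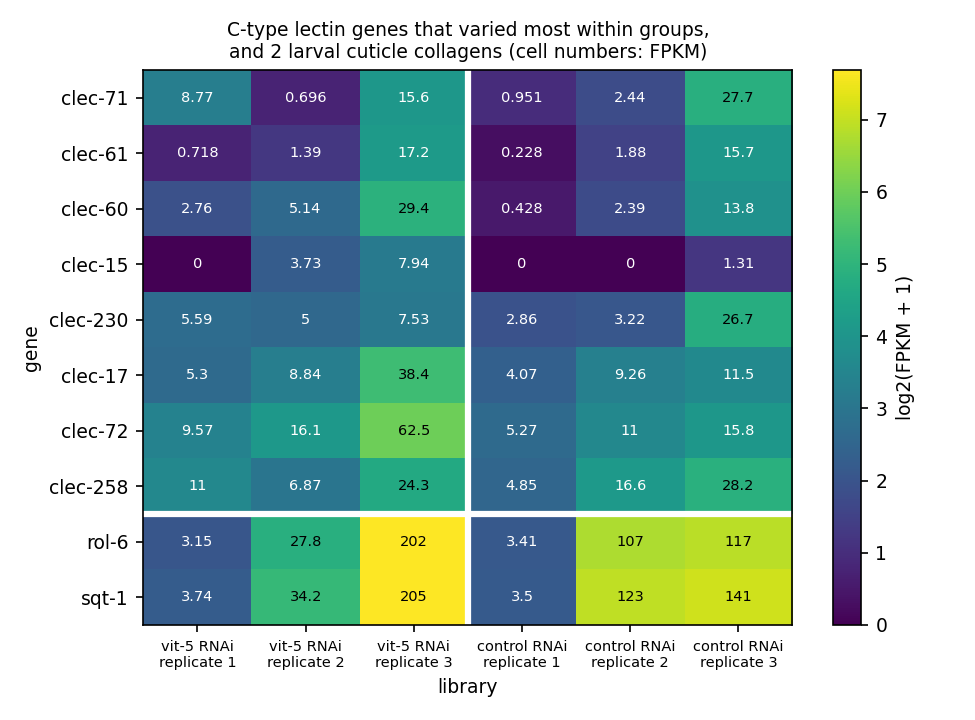
Heat map of log2(FPKM + 1), with FPKM written in each cell, for the 8 C-type lectin genes whose within-group SD was above 1 and for the larval cuticle collagens rol-6 and sqt-1. Columns are the 3 vit-5 RNAi and then the 3 control RNAi libraries; clec-60 and clec-61 are brightest in replicate 3 of both groups.

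A list of 11 members with a known tie to infection was described next, of which 9 were expressed. At an unadjusted p under 0.05, 0 of the 9 were higher and 0 lower, beside 26.2% and 0.906% of all tested genes. A positive log2 fold change was seen in 8 of the 9, beside 79.5% of all tested genes. The median of the 9 was 0.17 on the deposited scale, beside 0.34 for all tested genes. After median-of-ratios scaling clec-42, clec-52, clec-60 and clec-67 were above 0 (0.003 to 0.81). On that scale clec-41, clec-49, clec-61, clec-71 and clec-85 were below 0 (-0.69 to -0.11). The gene clec-85 (chromosome IV, 2850886 to 2855456), a target of the p38 kinase PMK-1, was the most abundant, with 377, 347 and 170 FPKM in vit-5 RNAi worms and 594, 339 and 219 FPKM in control worms. Its log2 fold change was -0.33 (SE 0.40, limma adjusted p 0.614), with groups that overlapped.

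Next came clec-41 (chromosome V, 13134903 to 13138101), which with clec-42 is tied to defence against Bacillus thuringiensis, at 164 ± 32.8 FPKM in vit-5 RNAi and 149 ± 31.0 FPKM in control worms (SD, n = 3 each). In clec-42 (chromosome V, 18191412 to 18194168) the values were 11.2, 18.1 and 52.8 FPKM after vit-5 RNAi and 4.71, 11.4 and 17.2 FPKM in controls. These values overlapped, with a difference of 1.09 on the log2 scale (SE 0.59, limma adjusted p 0.259). For defence against Serratia marcescens clec-39 and clec-49 are known. Of these clec-49 (chromosome V, 19748961 to 19751226) averaged 58.8 ± 17.5 FPKM in vit-5 RNAi and 52.8 ± 13.4 FPKM in control worms (SD, n = 3 each), and clec-39 never exceeded 0.113 FPKM. The Staphylococcus-induced clec-52 (chromosome IV, 8167164 to 8168760) averaged 14.1 ± 3.93 FPKM in vit-5 RNAi and 10.3 ± 0.70 FPKM in control worms (SD, n = 3 each), whereas clec-70 stayed at or below 0.90 FPKM. The neuronal clec-38 was not expressed, with at most 0.141 FPKM in a vit-5 RNAi library and 0.463 FPKM in a control library.

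Upstream of part of these genes stands the p38 pathway, in which the adaptor TIR-1 and the kinases NSY-1, SEK-1 and PMK-1 act in series towards the factor ATF-7, with the phosphatase VHP-1 opposing them. All 6 genes were tested and 0 passed the adjusted threshold. At an unadjusted p under 0.05, 5 of the 6 were higher after vit-5 RNAi on the deposited scale, where 26.2% of all genes were, and 1 of the 6 after median-of-ratios scaling, where 9.23% were. The list's median log2 fold change was 0.64, beside 0.34 for all genes. All 6 stayed above 0 after median-of-ratios scaling, from 0.083 for sek-1 to 0.56 for tir-1. The level of tir-1 was 7.20, 6.06 and 7.73 FPKM in vit-5 RNAi worms, against 4.07, 2.59 and 3.68 FPKM in control worms, without overlap (log2 fold change 0.86, SE 0.24, limma adjusted p 0.122, or 0.56 after median-of-ratios scaling). Known targets of the pathway did not share a direction. Of 6 tested, 1 was higher and 1 lower at an unadjusted p under 0.05. These were C17H12.8, at 197 ± 50.5 FPKM in vit-5 RNAi and 82.0 ± 23.6 FPKM in control worms, and sysm-1, at 135 ± 31.8 FPKM in vit-5 RNAi and 191 ± 17.5 FPKM in control worms (SD, n = 3 each). On the deposited scale 3 of the 6 targets had a log2 fold change above 0. After median-of-ratios scaling only C17H12.8 did (0.90), while sysm-1, K08D8.5, irg-4, irg-5 and dod-22 ran from -0.88 to -0.16.

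Among 7 genes of the response to Staphylococcus, 6 were tested and 3 were higher at an unadjusted p under 0.05, beside 26.2% of all genes, and 1 after median-of-ratios scaling, beside 9.23%. Among the 3 was ilys-3, an invertebrate-type lysozyme, with 17.9, 31.3 and 71.8 FPKM in vit-5 RNAi worms, against 6.18, 8.09 and 21.3 FPKM in control worms, values that overlapped (log2 fold change 1.65, SE 0.55, limma adjusted p 0.133). The beta-catenin gene bar-1 stood at 5.60 ± 0.287 FPKM in vit-5 RNAi and 3.46 ± 0.595 FPKM in control worms (SD, n = 3 each), and the third was exc-5. The transcription factor hlh-30 had 29.5 ± 3.16 FPKM in vit-5 RNAi and 22.8 ± 2.83 FPKM in control worms (SD, n = 3 each; limma adjusted p 0.245). The intestinal GATA factors elt-2, elt-4 and elt-7, all 3 tested, were higher at an unadjusted p under 0.05 (1 of them after median-of-ratios scaling), beside the same shares of all genes. They had a median log2 fold change of 0.63 and limma adjusted p-values of 0.122 to 0.182, and all 3 log2 fold changes were above 0 after median-of-ratios scaling (0.19 to 0.83).

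Galectins, the other large family of sugar-binding proteins in the worm, were set beside the C-type lectins. All 12 galectin genes were expressed, and 4 were higher and 0 lower at an unadjusted p under 0.05, beside 26.2% and 0.906% of all genes. After median-of-ratios scaling 2 were higher and 4 lower, beside 9.23% and 12.1%. On the deposited scale the median of their log2 fold changes was 0.14. The 4 that were higher as deposited, lec-2, lec-3, lec-5 and lec-7, kept a positive sign after median-of-ratios scaling, while lec-8, lec-9 and lec-11 turned negative. The galectins together held 4965, 5741 and 5192 FPKM in vit-5 RNAi worms and 5445, 5093 and 5529 FPKM in control worms, a range that the groups shared. The most abundant, lec-6, had 1926 ± 269 FPKM in vit-5 RNAi and 2211 ± 66.2 FPKM in control worms (SD, n = 3 each). Of 5 neuron genes 3 were higher at an unadjusted p under 0.05, of 6 intestine genes 2, and of 5 germline and 4 muscle genes 0, beside 26.2% of all genes. After median-of-ratios scaling 2 neuron genes and 1 intestine gene were higher, and 1 neuron gene and 1 germline gene were lower. The summed intestine markers were 2902 to 3892 FPKM in vit-5 RNAi and 3194 to 3727 FPKM in control worms, and the summed neuron markers 623 to 754 FPKM in vit-5 RNAi and 654 to 743 FPKM in control worms, and their part in the values of the C-type lectin genes was not tested.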

How the data were processed

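Per the file headers, each library's values are FPKM computed by the authors, 1 for each gene. Build WBcel235, HTSeq 0.6.1, TopHat2 2.0.12, Bowtie2 2.2.3 and DESeq 1.18.0 appear in the submitters' processing notes with no role. Strandedness, enrichment for polyadenylated RNA and the program behind the FPKM were not given in the sources. Zeros mostly appear as 0.0001 and are called listed at 0. Coordinates came from the RefSeq gene table of WBcel235, and coding lengths from Ensembl release 115 of the same assembly.

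Genes at 1 FPKM or more in at least 3 libraries (12908) were fitted in limma 3.58.1 (R 4.3.3) on log2(FPKM + 1), with the group as the only term, a mean-variance trend and Benjamini-Hochberg adjustment over all of them. Fold changes of low genes are understated on that scale. Single values per library were compared by exact 2-sided permutation. The fit was tested on simulated data. Members and lists were chosen with earlier results of these data known. Members were named if among the 10 highest in mean FPKM, the 10 smallest p-values, the 5 largest within-group SDs or the infection and neuronal lists; others were named after their values were seen. The name F49F6.12 of the p38 target list matched no gene.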

Additional observations from a re-analysis of the deposited data

How the results depend on the processing

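Alternatives were a pseudocount of 0.1, no filter, 3 scalings, a replicate block and leaving out each library. A filter on the mean level and the exclusion of overlapping genes were added after the data were seen. The members' median relative to all genes was -0.077 as deposited and ran from -0.087 without overlapping genes to 0.046 after quantile scaling, where its sign turned. It stayed within the spread between libraries in every alternative. Members higher at an unadjusted p under 0.05 numbered 8 after median-of-ratios, 10 after upper-quartile and 6 after quantile scaling, 11 without overlapping genes, and 11 to 22 with a library left out, against 19. The share of all tested genes moved too: it was 9.23%, 12.7% and 5.77% after these scalings and 11.2% to 29.9% with a library left out, against 26.2%. For the count without overlapping genes no like share is given. Members lower numbered 6, 5 and 3 after the same 3, 0 with no filter, 0 without overlapping genes, and 0 to 2 with a library left out, against 1. For the lower counts with a library left out, no share of all genes is given. The difference in summed FPKM (109.6) was -2285 and -1753 after median-of-ratios and upper-quartile scaling and -170.4 to 633.8 with a library left out. The cause of these differences was not tested.

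Genes past the adjusted threshold numbered 0 to 5 with a library left out, and the log2 fold change of vit-5 ran from -5.61 to -4.46, passing without vit-5 RNAi replicate 1 or 3 (adjusted p 0.000558 and 0.00721). The labels do not say that same-numbered libraries pair. Correlations of their deviations from the group means were 0.753, 0.0339 and 0.681, while those of differently numbered libraries ran from -0.709 to 0.348. The vit-5 RNAi replicate 2 correlated best with control replicate 1 (0.233). Pairing was thus neither shown nor excluded, and the main fit did not use it. With the replicate block 3806 of the 12908 genes and 26 of the 91 members passed the adjusted threshold, so the members are to be read against that background. At an unadjusted p under 0.05, 33 members were higher (36.3%, beside 41.9% of all genes). On the lower side there were 4, for which no share of all genes is given. The target vit-5 (log2 fold change -5.03) had a limma adjusted p of 0.000435 under the block. The lowest adjusted p of a member was then 0.0123.

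Of 389 values of the 30 named members that were tested, 336 kept their direction and side of the threshold, 38 turned sign and 15, all under the block, passed it. After median-of-ratios and upper-quartile scaling the log2 fold changes were -0.11 and -0.031 for clec-63, -0.21 and -0.13 for clec-50, -0.26 and -0.19 for clec-150, -0.30 and -0.22 for clec-88, -0.21 and -0.13 for clec-1, -0.11 and -0.057 for clec-71, -0.13 and -0.074 for clec-61, -0.22 and -0.15 for clec-41, and -0.21 and -0.13 for clec-49. Quantile scaling gave -0.25 for clec-71, -0.24 for clec-61, -0.084 for clec-49 and -0.033 for clec-52. With a library left out, ranges that crossed 0 were -0.091 to 0.22 for clec-88, -0.67 to 0.047 for clec-85, -0.037 to 0.31 for clec-1, -0.61 to 1.33 for clec-71, -0.94 to 1.16 for clec-61, -0.63 to 0.79 for clec-230, -0.016 to 0.31 for clec-41 and -0.081 to 0.30 for clec-49. At 1 FPKM depth is limiting: members near that level rest on few fragments.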
